A study of Mus musculus with 9 samples.

Results

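The genes of the epidermal growth factor (EGF) family and their ERBB receptors were followed in 4T1 mammary tumors of mice given the FAK inhibitor BI 853520 (BI) or vehicle. There were 9 of them among the 18755 genes in the deposited count table, chosen by name and found by Entrez identifier: the ligands Areg, Tgfa, Ereg, Hbegf, Btc and Nrg1 and the receptors Egfr, Erbb2 and Erbb3. This choice of genes was made with earlier results of these data known. The tumors grew from 1000000 4T1 cells, a BALB/c mammary carcinoma line, injected into the mammary fat pad of female BALB/c mice of 6 to 10 weeks. From day 15 after injection the mice received 50 mg/kg BI for 5 days (6 tumors, replicates 4 to 9) or the vehicle, 0.5% Natrosol (3 tumors, replicates 1 to 3), and RNA of whole snap-frozen tumor pieces was sequenced. Total counts per tumor ran from 16931607 to 33850245, with the deepest library in the vehicle group. Levels are given as CPM, counts scaled to the size of the library with TMM factors, and a gene is said to have risen or fallen where its adjusted p was at most 0.05 (edgeR quasi-likelihood test, Benjamini-Hochberg adjustment over all 13966 genes tested). The p-values set the difference between the groups against the spread between these tumors. According to the study, tumors whose RNA quality was not sufficient were left out.

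Ligands of the family are made as membrane-anchored precursors, and proteases of the ADAM group release the soluble growth factor. Areg (amphiregulin) and Tgfa (transforming growth factor alpha) bind EGFR, Ereg (epiregulin), Hbegf (heparin-binding EGF-like growth factor) and Btc (betacellulin) bind EGFR and ERBB4, and Nrg1 (neuregulin 1) binds ERBB3 and ERBB4. Receptors pair after binding and signal through RAS and ERK, Erbb2 being the partner without a known ligand of its own and Erbb3 one with little kinase activity, and the family is known in mammary tissue for driving epithelial growth.

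What the ligands share is the EGF-like stretch that contacts the receptor. Its 6 cysteines have the same spacing in Areg, Tgfa, Ereg, Hbegf and Btc, and a wider spacing in part of the stretch in Nrg1. The stretch is shown because it defines the family, and because some genes that hold it were called in these tumors and others were not. The coding stretch from the first to the last cysteine codon, from GENCODE transcripts on mm9, is written 5′ to 3′ on the coding strand with the 6 cysteine codons in capitals.
Areg: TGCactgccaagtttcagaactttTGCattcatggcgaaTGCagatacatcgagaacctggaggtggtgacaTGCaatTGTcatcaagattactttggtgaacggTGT
Tgfa: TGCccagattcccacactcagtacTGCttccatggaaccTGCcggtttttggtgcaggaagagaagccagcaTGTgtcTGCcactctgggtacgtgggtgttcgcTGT
Ereg: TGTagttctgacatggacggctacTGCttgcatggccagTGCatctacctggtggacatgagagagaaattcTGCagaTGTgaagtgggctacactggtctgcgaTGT
Btc: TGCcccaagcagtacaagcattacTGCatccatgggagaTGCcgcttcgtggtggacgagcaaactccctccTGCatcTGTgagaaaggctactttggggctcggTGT
Nrg1: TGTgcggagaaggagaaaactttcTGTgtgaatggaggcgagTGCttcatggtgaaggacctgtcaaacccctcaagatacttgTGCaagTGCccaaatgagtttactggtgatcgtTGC
In Areg, Tgfa, Ereg, Hbegf and Btc the stretch is 108 bases, and it is split over 2 exons after base 77, leaving 31 bases in the second. The Nrg1 stretch is 120 bases, split after base 89, and its annotated transcripts hold 2 different versions of it. Among the EGFR ligands, identity of the stretch ran from 45.4% of bases (Ereg and Tgfa) to 62.0% (Btc and Tgfa, and Btc and Hbegf) over 10 pairs.

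Ereg, Areg and Btc lie together on mouse chromosome 5 in mm9. Ereg spans chr5:91503643-91522675 on the plus strand, Areg chr5:91568641-91577458 on the plus strand, and Btc chr5:91786287-91831939 on the minus strand. The gap between Ereg and Areg is 45965 bases and holds no annotated gene. With Epgn, a further ligand of the family beside Ereg, the cluster covers 375450 bases. The other members are on other chromosomes, among them Tgfa at chr6:86145420-86225151 (plus), Nrg1 at chr8:32928500-33119581 (minus), Erbb3 at chr10:128004579-128026708 (minus), and Egfr at chr11:16652206-16818161 (plus) and Erbb2 at chr11:98273784-98299030 (plus). Each count covers the exons of its gene. Exons of Erbb2 and of Nrg1 overlap a gene on the other strand (1810046J19Rik, also named Mien1, and Gm17443), and the sources used here do not state whether counting used strand.

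The promoters of Areg and Tgfa are shown as those of a ligand that was not called and of one that fell, both binding EGFR. Promoter sequence in RefSeq (GRCm38.p6) matched 5 of the 9 genes, namely Areg, Btc, Tgfa, Egfr and Erbb2. The 250 bases before the start site are written on the gene's strand, with matches to a CRE (TGACGTCA) or a GC box (GGGCGG, either strand) in capitals.
Areg, chr5:91139349-91139598 (plus): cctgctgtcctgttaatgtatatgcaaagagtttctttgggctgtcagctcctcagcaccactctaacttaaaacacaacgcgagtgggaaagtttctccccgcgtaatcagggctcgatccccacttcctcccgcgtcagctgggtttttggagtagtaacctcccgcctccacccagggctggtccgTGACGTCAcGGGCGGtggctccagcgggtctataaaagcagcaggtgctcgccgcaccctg
Tgfa, chr6:86194972-86195221 (plus): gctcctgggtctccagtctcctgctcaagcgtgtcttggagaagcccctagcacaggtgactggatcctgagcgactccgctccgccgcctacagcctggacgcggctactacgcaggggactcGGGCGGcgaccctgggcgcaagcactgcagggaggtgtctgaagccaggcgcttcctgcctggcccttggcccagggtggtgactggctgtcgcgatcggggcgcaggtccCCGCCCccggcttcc
The CRE match of Areg began at position -61 and its GC box at -52. Tgfa held no CRE match and GC boxes at -126 and -15. Btc and Egfr, which were not called, and Erbb2, which fell, held no CRE match either. A GC box was found in Egfr (-9) and in neither Btc nor Erbb2. The matches thus did not follow the calls over these promoters. Of 32851 mouse promoter windows of this length, 1.55% held the CRE letters and 32.7% the GC box letters. The AP-1 letters TGANTCA, in 6.75% of the windows, matched in none of the 5 promoters. A match describes these letters and is not a measured site.

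Among the ligands, Tgfa, Hbegf and Ereg fell under BI, Areg and Nrg1 did not pass the test in either direction, and Btc, with the fewest counts, did not pass after adjustment. Counted over all 9 genes, 4 fell (Erbb2 being the fourth) and 0 rose, against 14.1% of all genes tested that fell, 14.6% that rose and 28.7% called in either direction. These 4 were also the genes in which every BI tumor was below every vehicle tumor, which held for 14% of all genes tested, and 0 had every BI tumor above, against 14.1%. By the cutoffs that the study used (an unadjusted p of at most 0.05 and at least a 1.5-fold change), 4 of 9 fell, Btc in the place of Erbb2, against 3.57% of all genes tested, and 0 rose, against 9.59%. The median log2 fold change was -0.70 over the ligands and -0.14 over the receptors, against -0.0037 over all genes tested. Because the members were chosen with earlier results of these data known, these counts and medians are a description.

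**Figure D1:**
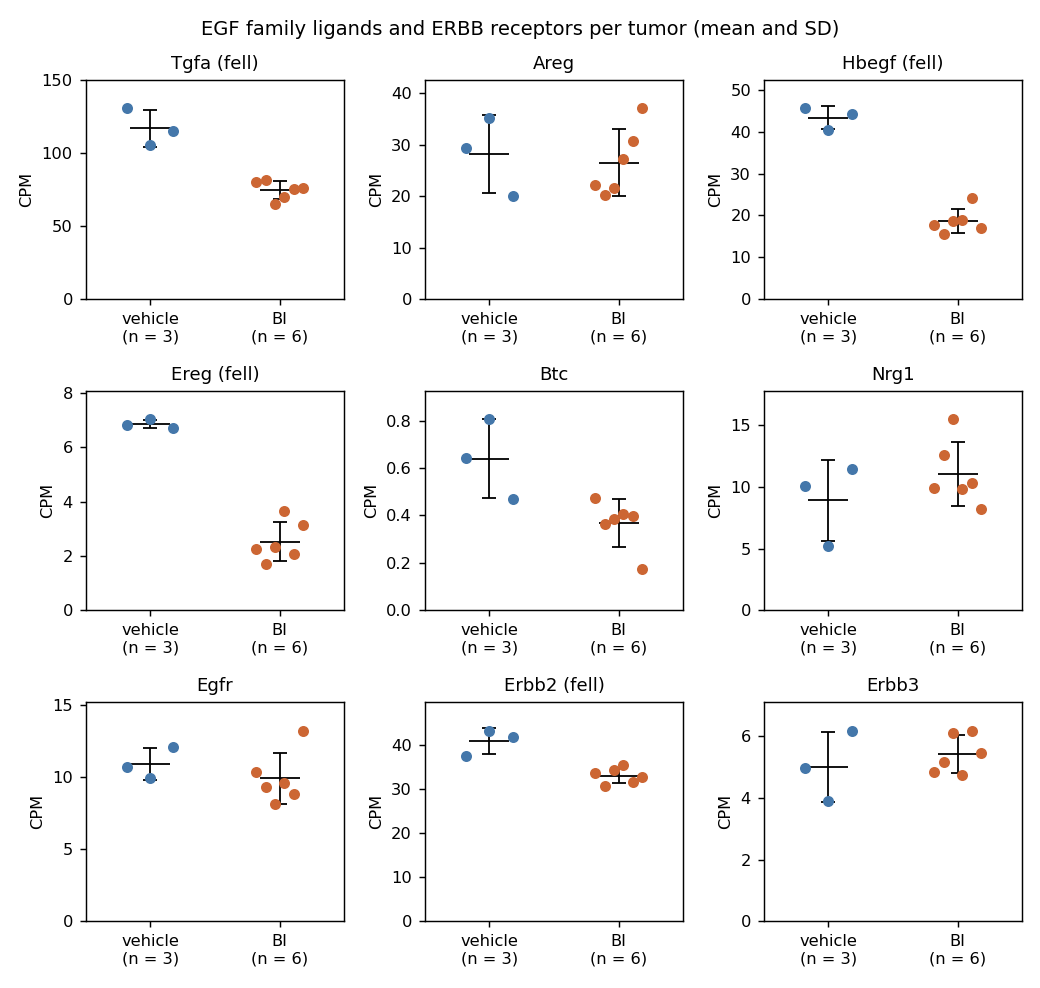
Level in CPM (vertical axis, from 0) of each ligand and receptor in every tumor, vehicle (n = 3, blue) and BI (n = 6, orange), with one point per tumor, the mean as a horizontal line and the SD as a bar. In Tgfa, Hbegf, Ereg and Erbb2 every BI tumor sits below every vehicle tumor, whereas the groups overlap in the other 5 genes.

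Hbegf was at 45.6, 40.4 and 44.1 CPM in the vehicle tumors, while the BI tumors ran from 15.6 to 24.1 CPM with a median of 18.2. The highest BI tumor was thus well under the lowest vehicle tumor. On the log2 scale the change was -1.22 (SE 0.110, 95% interval -1.45 to -0.98, adjusted p = 3.42e-05), a level 0.431-fold that of vehicle, and the exact permutation test of the tumor means gave p = 0.0238, the smallest that 3 tumors against 6 allow.

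Ereg was at 6.83, 7.02 and 6.72 CPM in vehicle (149 to 228 counts). In the BI tumors it ran from 1.72 to 3.64 CPM with a median of 2.29 (33 to 81 counts). The vehicle tumors were almost level with each other and the BI tumors spread over a wider relative range, all below them. The log2 change was -1.44 (SE 0.202, 95% interval -1.88 to -0.997, adjusted p = 0.00038), a level 0.369-fold that of vehicle, with an exact permutation p = 0.0238.

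Tgfa was at 131, 106 and 115 CPM in vehicle. The BI tumors ran from 65.2 to 81.7 CPM, with a median of 75.6. No BI tumor reached a vehicle tumor, and the log2 change was -0.65 (SE 0.0819, 95% interval -0.83 to -0.47, adjusted p = 0.000202), a level 0.638-fold that of vehicle, with an exact permutation p = 0.0238.

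Areg, like Tgfa a ligand of EGFR, was at 29.3, 35.2 and 20.03 CPM in vehicle and ran from 20.3 to 37.1 CPM in BI, with a median of 24.7. The groups lay on top of each other, and the highest tumor of all was a BI tumor. Its log2 change was -0.084 with a 95% interval of -0.53 to 0.36 (adjusted p = 0.791). Without vehicle replicate 2 the sign turned (0.11, adjusted p = 0.772).

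Btc was near the limit of the sequencing, with 14 to 18 counts in vehicle and 3 to 10 in BI. Vehicle tumors had 0.642, 0.805 and 0.471 CPM, and BI tumors ran from 0.174 to 0.472 CPM with a median of 0.393. BI replicate 4 reached the lowest vehicle tumor. The log2 change of -0.75 (95% interval -1.48 to -0.025) had an unadjusted p of 0.0437 and an adjusted p of 0.111 in the edgeR quasi-likelihood test. In 5 of 6 BI tumors Btc was below every vehicle tumor, and the exact permutation p was 0.0476.

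Nrg1, the ligand of ERBB3 and ERBB4 among the 6, was at 10.04, 5.19 and 11.5 CPM in vehicle and from 8.17 to 15.5 CPM in BI, with a median of 10.1. Vehicle replicate 2 was lowest of all 9 tumors and the rest overlapped. The log2 change was 0.30 with a 95% interval of -0.22 to 0.82 (adjusted p = 0.37), and it was 0.036 without vehicle replicate 2 and 0.54 without vehicle replicate 3.

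**Figure D2:**
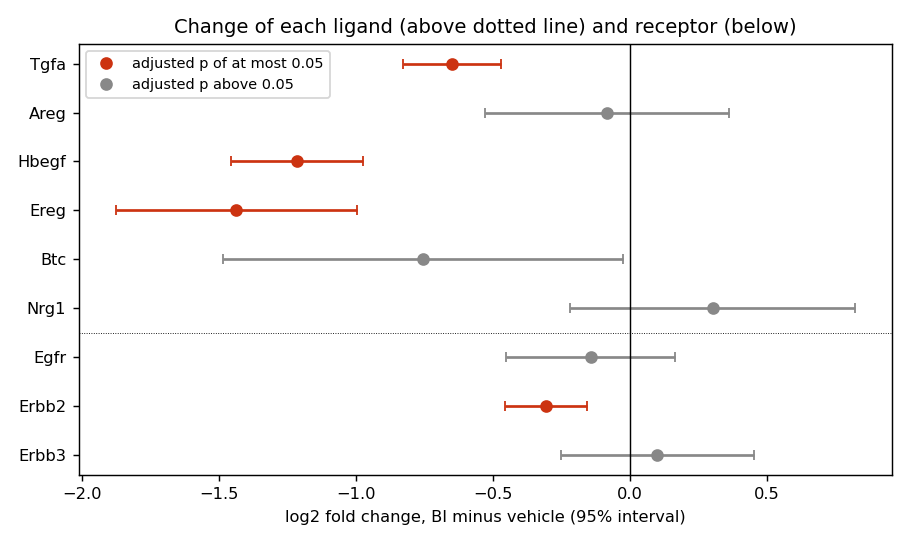
Log2 fold change of BI against vehicle (horizontal axis) with its 95% interval for each ligand and receptor (rows), red where the adjusted p was at most 0.05. The intervals of Tgfa (-0.83 to -0.47), Hbegf, Ereg and Erbb2 lie below 0, and Btc, whose interval ends at -0.025, did not pass after adjustment.

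Of the receptors, Erbb2 fell slightly and Egfr and Erbb3 did not pass the test. Erbb2 had 37.5, 43.2 and 41.7 CPM in vehicle and from 30.7 to 35.5 CPM in BI, with a median of 33.2. The groups were separate but close, the highest BI tumor lying just under the lowest vehicle tumor. Its log2 change was -0.31 (SE 0.0691, 95% interval -0.46 to -0.15, adjusted p = 0.00686), or 0.809-fold, with an exact permutation p = 0.0238. Mien1, whose exons overlap those of Erbb2, differed in the other direction (24.4 ± 3.09 CPM in vehicle, SD, n = 3, and 29.1 ± 2.06 in BI, n = 6, log2 change 0.25, adjusted p = 0.0558).

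Egfr, the receptor of most of the ligands, was at 10.7, 9.93 and 12.1 CPM in vehicle and from 8.16 to 13.2 CPM in BI, with a median of 9.46. Its highest tumor was BI replicate 9, and 4 of 6 BI tumors were below all vehicle tumors. The log2 change was -0.14 with a 95% interval of -0.45 to 0.17 (adjusted p = 0.478). Erbb3 was at 4.95, 3.89 and 6.16 CPM in vehicle and from 4.72 to 6.16 CPM in BI, with a median of 5.31. The groups overlapped and BI replicate 8 was marginally above the highest vehicle tumor, with a log2 change of 0.10, a 95% interval of -0.25 to 0.45 and an adjusted p = 0.678. Without vehicle replicate 2 the sign of Erbb3 turned (-0.049).

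Erbb4, the remaining receptor, had 0 counts in the 3 vehicle tumors and at most 0.114 CPM in a BI tumor, under the level that 3 counts give in any BI library, and was not tested. No fold is given for it.

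Set against each other per kilobase of gene length, 3 EGFR ligands stood at the top. In vehicle the order was Tgfa (27.7 ± 2.99 CPM per kb, SD, n = 3), Areg (23.5 ± 6.36), Hbegf (18.2 ± 1.13), Erbb2 (8.17 ± 0.588), Nrg1 (4.23 ± 1.56), Egfr (1.69 ± 0.172), Ereg (1.66 ± 0.0374), Erbb3 (1.24 ± 0.282) and Btc (0.222 ± 0.058). Tgfa and Areg, Areg and Hbegf, and Egfr and Ereg were neighbours whose tumors overlapped. In BI, Areg came first (22.1 ± 5.44 CPM per kb, n = 6), then Tgfa (17.7 ± 1.48), Hbegf (7.86 ± 1.22), Erbb2 (6.61 ± 0.355), Nrg1 (5.25 ± 1.23), Egfr (1.54 ± 0.276), Erbb3 (1.34 ± 0.154), Ereg (0.610 ± 0.174) and Btc (0.128 ± 0.0352). Areg and Tgfa, Hbegf and Erbb2, Erbb2 and Nrg1, and Egfr and Erbb3 overlapped there. Without the division by length, Tgfa ranked first of the 9 in both groups, and Areg ranked 4 in vehicle and 3 in BI.

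**Figure D3:**
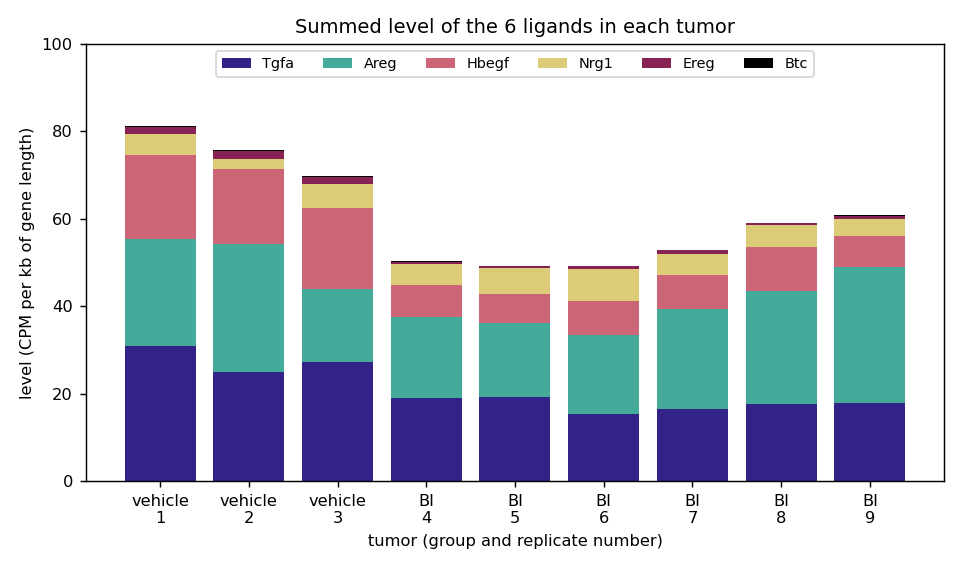
Level of the 6 ligands in each tumor (vertical axis, CPM per kb of gene length, stacked from 0), by group and replicate number on the horizontal axis. The stacks of the vehicle tumors reach 69.7 to 81.2 CPM per kb and those of the BI tumors 49.3 to 60.8, and the Areg section makes up 24.0 to 38.7% of a vehicle stack and 34.3 to 50.9% of a BI stack.

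Summed over the 5 EGFR ligands, the level was 71.3 ± 6.30 CPM per kb in vehicle (64.3 to 76.4) and 48.4 ± 6.01 in BI (42.0 to 56.9), with no overlap. Of the sum of all 6 ligands, Areg made up 30.9 ± 7.41% in vehicle and 40.8 ± 6.18% in BI, Tgfa 36.7 ± 3.25% and 33.2 ± 4.16%, and Hbegf 24.2 ± 2.16% and 14.7 ± 1.89%. Nrg1 made up 5.65 ± 2.29% and 9.97 ± 3.04%. The 3 receptors summed to 11.1 ± 0.680 CPM per kb in vehicle (10.4 to 11.8) and 9.49 ± 0.393 in BI (8.87 to 9.95). Erbb2 was 73.6 ± 3.46% of that sum in vehicle and 69.6 ± 2.42% in BI. The ligand shares depend on the division by length, without which Areg made up 13.8% of the ligand sum in vehicle and 19.7% in BI, and Tgfa 57.1% and 55.9%.

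Whether one ligand changed more than another was tested on the log2 ratio of each of the 15 ligand pairs within a tumor. This test was added after the values had been seen. In 6 pairs the groups did not overlap (exact permutation p = 0.0238 each, adjusted p = 0.0595 over the 15), and 0 pairs passed 0.05 after adjustment. With 3 tumors against 6 the test gives no p below 0.0238, so 6 fully separate pairs of 15 could not pass. The count of 0 therefore does not show that the ligands changed alike. The 15 pairs reuse the same 6 ligands, so the 6 separate pairs are not independent results. How often pairs of other genes separate was not tested. Of single genes tested, 14% had every BI tumor below every vehicle tumor and 14.1% had every BI tumor above. The log2 ratio of Areg to Hbegf was -0.66 ± 0.469 in vehicle (SD, n = 3, from -1.13 to -0.20) and 0.48 ± 0.328 in BI (n = 6, from 0.21 to 1.12). Areg to Tgfa differed by 0.56 with overlapping groups (exact permutation p = 0.119, adjusted p = 0.149), so that a difference between their changes was not established. The other pairs without overlap were Areg to Ereg (a difference of 1.37), Tgfa to Hbegf (0.58), Tgfa to Nrg1 (-1.001), Hbegf to Nrg1 (-1.58) and Ereg to Nrg1 (-1.81).

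In whole tumors, fewer cells of a type and less RNA per cell cannot be told apart, and several marker lists moved with BI. The tumor epithelium list had 2 of 10 genes that fell (Krt18 by 0.50 and Krt8 by 0.28 on the log2 scale) and 0 that rose. That is not far from the 14.1% of all genes tested that fell, and the median log2 fold change of the list was -0.048. Its summed level was 967 to 1191 CPM in vehicle and 759 to 968 in BI, 91.0 to 97.0% of it from Krt8 and Krt18. As a ratio to that sum, which was an alternative added after the data were seen, Hbegf (-0.85) and Ereg (-1.12) were below vehicle with exact permutation p = 0.0238, Tgfa was at -0.27 (p = 0.0952), and Erbb2 turned to 0.069 (p = 0.643). Tgfa and Erbb2 were thus called on the CPM scale and not on this ratio.

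Of 9 macrophage markers 8 rose and 0 fell (C1qb and Csf1r among them), with sums of 1659 to 2239 CPM in vehicle and 3276 to 4089 in BI. Of 5 neutrophil markers tested 4 fell (Retnlg and S100a9 among them) and 0 rose, with sums of 515 to 739 and 208 to 361 CPM. In the G2/M list 5 of 10 fell and 0 rose, with sums of 2135 to 2912 and 1397 to 2150 CPM. T cell (5 of 7), NK cell (5 of 6), dendritic cell (4 of 6), endothelium (4 of 8), B cell (2 of 4), fibroblast (2 of 8) and adipocyte (1 of 7) markers included genes that rose and none that fell. All these marker counts stand against 14.6% of all genes tested that rose and 14.1% that fell. The adipocyte count was at about that share and the fibroblast count not far from it. Of 8 mast cell markers 6 rose and 1 (Hdc) fell. In the Schwann cell list 1 of 5 fell (Ngfr), in the skin keratinocyte list 1 of 2 fell (Krt10), and of 6 skeletal muscle markers 0 were called. No marker with a row was at 0 in all tumors. The part of these cell types in the change of the ligands, of Erbb2 and of the pathway genes described below was not tested.

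The other genes of the pathway were described from 6 lists. Among further ligands, 0 of 3 tested passed, Nrg2 having the most reads (1.71 to 2.06 CPM in vehicle, 1.51 to 4.12 in BI), and Epgn was below the filter on low counts. Nrg4, named after its values were seen, missed the threshold (0.224 to 0.678 CPM in vehicle, 0.495 to 1.97 in BI, log2 change 1.37, 95% interval 0.32 to 2.42, adjusted p = 0.0514), with 5 of 6 BI tumors above every vehicle tumor, and it met the cutoffs of the study. Of 10 genes of ligand processing (ADAM proteases, iRhoms and Timp3), 3 rose and 1 fell, against 14.6% and 14.1% of all genes tested. Adam9 (0.31, adjusted p = 0.00364), Adam15 (0.39, adjusted p = 0.00479) and Adam10 (0.32, adjusted p = 0.0323), metalloproteases, were higher, and Rhbdf1, an iRhom that escorts ADAM17, fell by 0.33 (adjusted p = 0.000635). The other iRhom, Rhbdf2, named after its values were seen, differed in the other direction and was not called (0.19, 95% interval 0.030 to 0.35, adjusted p = 0.0716). The call of Adam10, the gene of the list with the most reads at 249 ± 12.96 CPM in vehicle (n = 3) and 311 ± 40.4 in BI (n = 6), was lost without vehicle replicate 1, 2 or 3 or BI replicate 4 (adjusted p up to 0.111). Adam17 itself differed by -0.088 with a 95% interval of -0.22 to 0.041.

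Genes that restrain or degrade the receptors gave 3 that rose and 2 that fell of 18 tested, near the 28.7% of all genes tested that were called. Phosphatase genes moved in both directions, Ptpn1 (0.50, adjusted p = 6.92e-05) and Ptprj (0.61, adjusted p = 0.000138) rising and Ptprk falling by 0.36 (adjusted p = 0.0147). Cbl, a ubiquitin ligase for activated receptors, rose by 0.30 (adjusted p = 0.011). Without vehicle replicate 3, Cbl (adjusted p = 0.0522) and Ptprk (0.0706) were not called. The fifth, Lrig2, was borderline (-0.28, adjusted p = 0.0496, up to 0.158 without vehicle replicate 2) and was named after its values were seen. Errfi1, the feedback inhibitor of EGFR and the gene with the most reads, did not pass (0.051, 95% interval -0.29 to 0.39).

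Adaptors and proximal signalling genes gave 3 that rose and 2 that fell of 17, also near that 28.7%. The docking genes Gab1 (0.74, adjusted p = 0.00052) and Gab2 (0.42, adjusted p = 0.00318) and the adaptor Grb2 (0.32, adjusted p = 0.00346) rose. Src, a tyrosine kinase that acts with FAK, fell by 0.29 (adjusted p = 0.0315), a call lost without any 1 of the vehicle tumors or BI replicate 7 or 9 (adjusted p up to 0.102). Plcg1, phospholipase C gamma, was borderline (-0.22, adjusted p = 0.0441, up to 0.216 without vehicle replicate 3) and was named after its values were seen. Crk, with the most reads, differed by -0.088 (95% interval -0.20 to 0.021). In the RAS-ERK core 0 of 12 rose and 2 fell (against 14.6% and 14.1% of all genes tested), Map2k1 by 0.17 (adjusted p = 0.0424) and Rasa1 by 0.16 (adjusted p = 0.033). Both were small and lost the call when 1 of most single tumors was left out (adjusted p up to 0.169 for Map2k1 and 0.0997 for Rasa1).

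Like the other lists, that of ERK output and feedback genes was chosen with earlier results of these data known. Its counts are therefore not independent evidence. It gave 10 genes that fell and 0 that rose of 20, against 14.1% of all genes tested that fell and 14.6% that rose, with a median log2 fold change of -0.19 against -0.0037. Those with the smallest p were Ier3 (-0.75, adjusted p = 0.000202), an immediate early gene, Dusp4 (-0.61, adjusted p = 0.000281), an ERK phosphatase, Spry2 (-0.46, adjusted p = 0.000594), a feedback inhibitor, and Fosl1 (-0.82, adjusted p = 0.000763), an AP-1 subunit. Ier3 was at 93.2 to 125 CPM in vehicle and 55.3 to 70.2 in BI, and Fosl1 at 67.1 to 76.99 and 33.5 to 53.8, in both cases without overlap. Ccnd1 (cyclin D1), with the most reads, fell by 0.51 (adjusted p = 0.0165), with the call lost without vehicle replicate 1 or 3 (adjusted p = 0.0709 and 0.0538). The call was also lost for Egr1 without vehicle replicate 1 (adjusted p = 0.131), for Spred2 without vehicle replicate 3 (0.0629) and for Spred1 without either of them (0.0662 and 0.0822), genes named after their values were seen. Dusp6, Spry4, Etv1 and Fos, other genes of the same list chosen after their values were seen, had log2 changes of 0.045, 0.019, 0.014 and 0.022 and were not called. They do not stand for all 10 genes of the list that were not called.

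**Figure D4:**
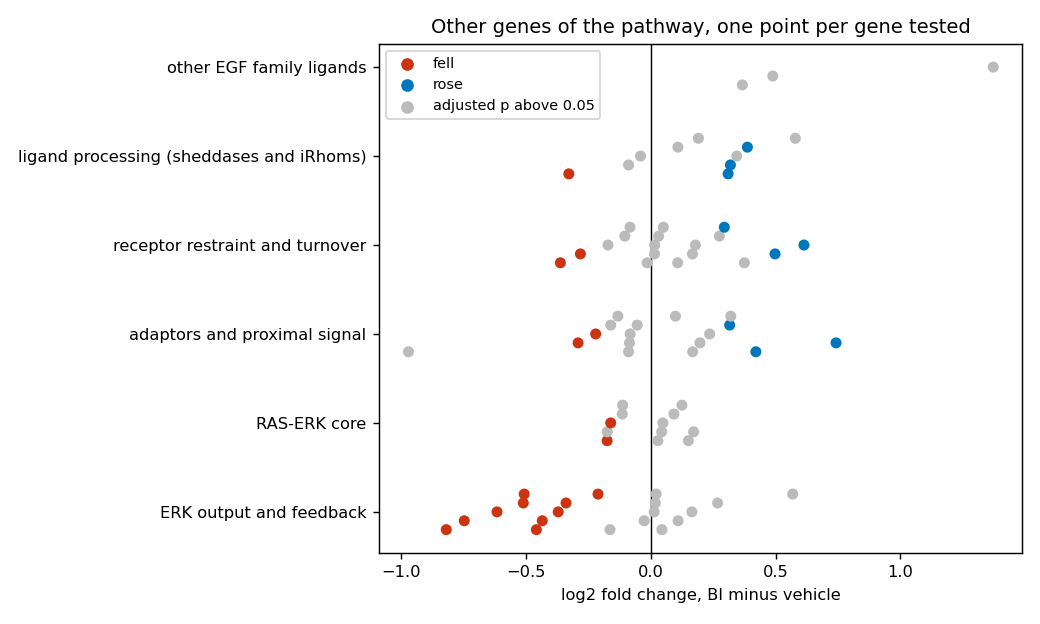
Log2 fold change of BI against vehicle (horizontal axis) of each tested gene of the pathway lists (rows), one point per gene, red where it fell, blue where it rose and grey where the adjusted p was above 0.05; the height of points within a row has no meaning. In the ERK output row 10 of 20 genes are red and 0 blue, and the rows of receptor restraint (2 red and 3 blue of 18) and adaptors (2 red and 3 blue of 17) hold both colors.

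Variation between tumors of a group was compared after each group was set to its own mean, over 9 tumors and 12185 genes, as a description. The pattern most like that of Hbegf was Zmynd19 (Pearson r 0.961), then Rcc1l (0.951) and Ppp1r10 (0.944). For Tgfa it was Pde4a (0.966), Sec22c (0.939) and Ap3m2 (0.935), for Ereg Vps9d1 (0.957), Wdr61 (0.942) and Sptssa (0.942), and for Erbb2 Zfp709 (0.941), Fzd7 (0.929) and Zc2hc1c (0.912). Between a called member and the other members, r ran from -0.79 (Tgfa and Erbb2) to 0.59 (Ereg and Erbb2), and Ereg and Areg had 0.48. The points share library and depth, and no p is given. The like genes were picked as the highest of 12185 over only 9 tumors, and what r such a choice gives by chance was not tested.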

How the data were processed

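RNA sequencing counts of 9 tumors (vehicle 3, BI 6, grouped by the labelled agent) were analysed. The authors aligned reads to mm9 with STAR and counted reads in exons of RefSeq genes with QuasR, and the deposited values are raw counts per gene, without normalization. Symbols matched 18700 of 18755 genes by Entrez identifier, and 0 columns of per-sample values were left unused. Total counts of 16931607 to 33850245 make 3 counts equal to 0.0886 to 0.177 CPM.

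Counts were fitted with edgeR 4.0.16 in R 4.3.3 (TMM, filterByExpr, quasi-likelihood F test without covariates), keeping 13966 genes. The filter asked for the CPM of 10 counts at the median library size in about as many tumors as the smaller group holds, and 15 counts in total. Exact permutation tests (two-sided, 84 divisions of the tumors) used log2 CPM (prior count 2). In a simulation with 2-fold changes drawn from the tumors' means, 161 of 198 changed genes (81.3%) and 10 unchanged genes were called. Replicates differed from each other by more than sampling noise, so none was merged.

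All 9 members were named. Of each pathway list, up to 4 called genes with the smallest p and the gene with the most reads were named, of each marker list up to 2 called genes, and 3 like genes per called member. The gene with the most reads in 1 list is not reported here. The members and lists were chosen with earlier results of these data known. Alternatives were RLE factors, library size scaling, no filter, 1 CPM in 3 tumors, the likelihood ratio test, limma-voom (limma 3.58.1), DESeq2 1.42.0, another prior count, levels not divided by length, and each tumor left out. Of the list entries, 4 of 194 had no row and were not analysed here.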

Additional observations from a re-analysis of the deposited data

Results flagged for a closer look

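Among the levels examined per group, 1 stood apart from its group: Btc in BI replicate 9 was at 0.174 CPM (3 counts), while the nearest BI tumor was at 0.365 CPM, a gap of 0.640 of the range of the 6 tumors. Chance flags about 1 in 20 groups, and 33 values were examined.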

How the results depend on the processing

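Leaving out 1 tumor at a time, the log2 changes ran from -0.72 to -0.56 for Tgfa, -1.58 to -1.35 for Ereg, -1.29 to -1.17 for Hbegf, -0.36 to -0.26 for Erbb2 (adjusted p up to 0.0371), -0.96 to -0.56 for Btc, 0.036 to 0.54 for Nrg1, -0.24 to -0.058 for Egfr, -0.29 to 0.11 for Areg and -0.049 to 0.29 for Erbb3. Areg (0.11) and Erbb3 (-0.049) turned in sign without vehicle replicate 2. The number of members that fell was 4 and the number that rose 0 in all 9 of these fits. Under the other scalings, filters, tests and thinned counts each member that could be fitted kept its direction and its side of the threshold. Btc could not be fitted with at least 1 CPM in 3 tumors or with counts thinned to the smallest library. As a ratio to the summed tumor epithelium list, added after the data were seen, Areg (0.29), Egfr (0.22) and Erbb2 (0.069) turned in sign and Tgfa (-0.27, exact permutation p = 0.0952) no longer passed. The cause was not tested. Over 26 called pathway genes and the alternatives, 387 of 442 comparisons kept the call, 55 in 12 genes lost it and 0 reversed. No paired analysis was possible because the labels give the groups no shared replicate numbers. With 3 vehicle tumors, differences in Areg, Nrg1 and Erbb3 of the size of their intervals could not be resolved.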

Other observations

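The genes next to Erbb2 on chromosome 11, which in human breast tumors are often amplified with it, did not pass the test after adjustment. Grb7, an adaptor of ERBB receptors, was low (0.883 ± 0.368 CPM in vehicle, SD, n = 3, and 0.438 ± 0.138 in BI, n = 6, log2 change -0.97, adjusted p = 0.0589 in the edgeR quasi-likelihood test). Pgap3 was at 5.74 ± 1.152 and 5.45 ± 0.467 CPM (log2 change -0.072, adjusted p = 0.742). In 5 of 6 BI tumors Grb7 was below all vehicle tumors, and the exact permutation p was 0.0476. Its log2 change had a 95% interval of -1.74 to -0.197, and it met the cutoffs of the study. These values rest on few reads, 18 to 28 counts in vehicle and 5 to 13 in BI.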
